A study of Mus musculus with 3 samples.

Results

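Gpnmb foamy-like macrophages were defined here as single-cell barcodes that held at least 2 unique molecular identifiers (UMIs, counts of captured RNA molecules) of Gpnmb and at least 1 of Cd68, and none of Lyve1, Cd79a, Cd3e or Col1a1. Gpnmb encodes a transmembrane glycoprotein of late endosomes and lysosomes, Cd68 a lysosomal membrane protein of macrophages, Lyve1 a hyaluronan receptor of resident vessel macrophages, Cd79a a part of the B cell receptor, Cd3e a part of the T cell receptor and Col1a1 a collagen chain of fibroblasts. The rule was met by 264 of the 20903 barcodes kept after filtering, out of 25822 called barcodes in 3 libraries: 71 in Ctrl, 37 in the library labelled HHcy and 156 in WD. Because the members were selected on measured UMIs, their levels of these 6 genes are a description, and so is every difference between members and other cells of the same library.

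The libraries came from the aortas of mice that the labels give as ApoE-/- on the C57BL/6J background, which holds for the controls too. Ctrl was untreated, HHcy had Hcy at 1.8 g/L added to its water over 4 weeks, and WD had western diet over 4 weeks. Whole vessels with adventitia were digested with enzymes and live CD45+ cells, the leukocytes, were sorted for 3′ droplet sequencing. Each group was 1 library, the labels give neither the age nor the sex of the mice nor how many were pooled, and no test between groups was possible. Intervals below are 95% intervals that cover counting error only.

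In atherosclerosis, macrophages in the vessel wall take up lipoproteins, break down their cholesteryl esters in lysosomes, and store the cholesterol again as droplets or export it through ABC transporters. Cells loaded in this way are called foam cells, and in mouse lesions they are known for genes of lipid handling and lysosomes together with Trem2, a lipid-sensing receptor, and Spp1, the secreted protein osteopontin. Gpnmb is known as a gene that rises when lysosomes are under load, downstream of the MiT/TFE transcription factors.

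The 3 libraries held 66789257 to 105180370 UMIs over 7512 to 9753 called barcodes. Between 20 and 24 barcode sequences were shared by each pair of libraries, and 0 were members in both libraries. The library labelled HHcy stood apart in the gene that all mice should lack in functional form. Apoe was at 844 CPM in its macrophage comparator described below, against 25.6 in Ctrl and 24.99 in WD. CPM is the usual depth-scaled unit, here the UMIs of a gene summed over a class of barcodes and scaled by all UMIs of the class. In that comparator 167 of its 1225 barcodes held 10 or more Apoe UMIs, against 1 of 1808 and 2 of 2567. Among the members Apoe was at 17.1, 72.8 and 15.8 CPM in Ctrl, the library labelled HHcy and WD, and 1 member of the library labelled HHcy, and none of the others, held 10 or more Apoe UMIs. A 3′ read need not fall in the disrupted stretch of the gene, so a low count is only a partial check of the label. Values are therefore given for each library, and counts of genes alike between libraries also without the library labelled HHcy. The leading genes and the correlations with Gpnmb below were chosen over all 3 libraries.

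Members were compared with the other kept barcodes that held Csf1r, the receptor for the macrophage growth factor CSF1, and no UMI of Gpnmb, Cd79a or Cd3e. This comparator numbered 1808, 1225 and 2567 barcodes and was a mixture, with neutrophils, monocytes, dendritic cells and resident macrophages in it. Median depth was 17251, 13987 and 15576 UMIs per member, against 8107.5, 8614 and 9575 per comparator barcode. A minimum of Gpnmb UMIs favours deep barcodes, and the part of depth in the differences below was not tested beyond the thinned values given with them.

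The rule left out many barcodes with Gpnmb. Of 131, 102 and 327 barcodes with at least 2 Gpnmb UMIs in Ctrl, the library labelled HHcy and WD, 42, 48 and 100 held Cd79a. Those are 32.1%, 47.1% and 30.6%. Among all barcodes with Csf1r, 995 of 3015, 2041 of 3448 (59.2%) and 1438 of 4473 (32.1%) held Cd79a, so leaving out Cd79a took a larger share from the library labelled HHcy than from the others. Lyve1 was present in 15, 23 and 62 of the barcodes with Gpnmb and Col1a1 in 6, 21 and 50. Just outside the rule lay 43, 26 and 86 barcodes with exactly 1 Gpnmb UMI, and just inside lay 16, 8 and 26 members with exactly 2.

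Gpnmb itself varied widely among members. The lowest was 2 UMIs in each library, the median was 6, 6 and 7, and the highest was 93, 83 and 176. Members with 10 or more Gpnmb UMIs made up 38.0% (26.8 to 50.3), 29.7% (15.9 to 47.0) and 42.3% (34.4 to 50.5) of the members, and their intervals overlapped. Summed over members, Gpnmb stood at 901, 839 and 1019 CPM. Barcodes with Cd79a and Ms4a1 and without Csf1r or Cd3e, taken as B cells that should lack the gene, had Gpnmb at 2.17, 1.502 and 6.72 CPM.

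**Figure D1:**
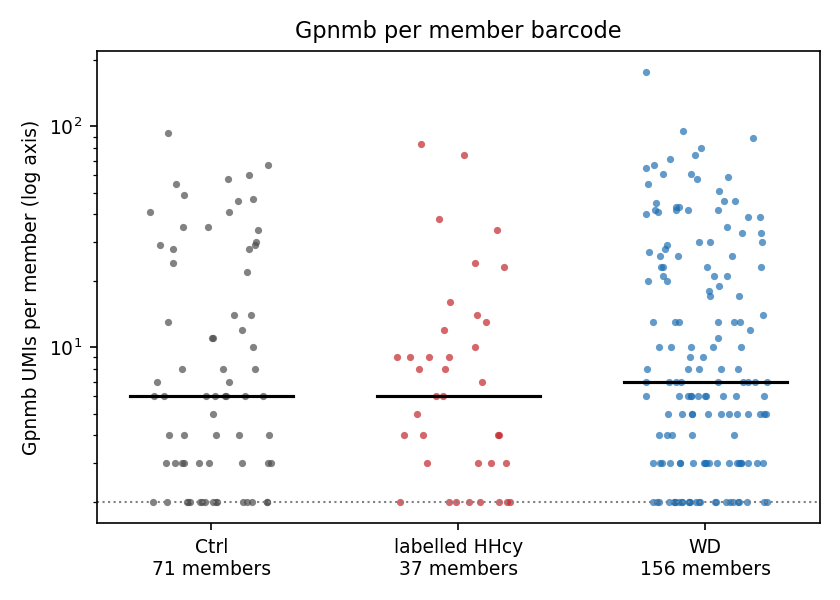
Gpnmb UMIs (vertical log axis) of each of the 71, 37 and 156 members, by library. Points are barcodes, black bars are medians (6, 6 and 7) and the dotted line is the minimum of 2 UMIs that chose them, so the spread above that line is what varies between members.

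The other 4 markers that came with the label were not used by the rule. They were chosen with earlier results of these data known, so their levels are a description and not an independent check of the label. Spp1, which encodes osteopontin, was at 7400 CPM in members against 362 in the comparator in Ctrl, 1839 against 103 in the library labelled HHcy and 5743 against 359 in WD. Its log2 ratios were 4.35 (4.31 to 4.40), 4.16 (4.04 to 4.28) and 4.00 (3.97 to 4.04), where 1 is a 2-fold difference. Members were far above the comparator in each library, while the library labelled HHcy was lowest among the members. Spp1 was detected in 76.1%, 51.4% and 74.4% of members and in 10.1%, 3.17% and 14.8% of the B cell barcodes. Fabp5, a cytosolic fatty acid-binding protein, was at 1302 against 183 CPM, 2201 against 160 and 3710 against 322, with log2 ratios of 2.83 (2.74 to 2.92), 3.78 (3.68 to 3.89) and 3.52 (3.48 to 3.57). Ctrl, highest for Spp1, was lowest for Fabp5. Trem2 was at 696 against 99.7 CPM, 437 against 89.8 and 425 against 163, so its excess in WD was the smallest, with a log2 ratio of 1.39 (1.29 to 1.48). Atp6v0d2, an isoform of a subunit of the proton pump that acidifies lysosomes and is abundant in osteoclasts, was scarcer at 121 against 4.29, 135 against 2.07 and 61.4 against 3.42 CPM.

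**Figure D2:**
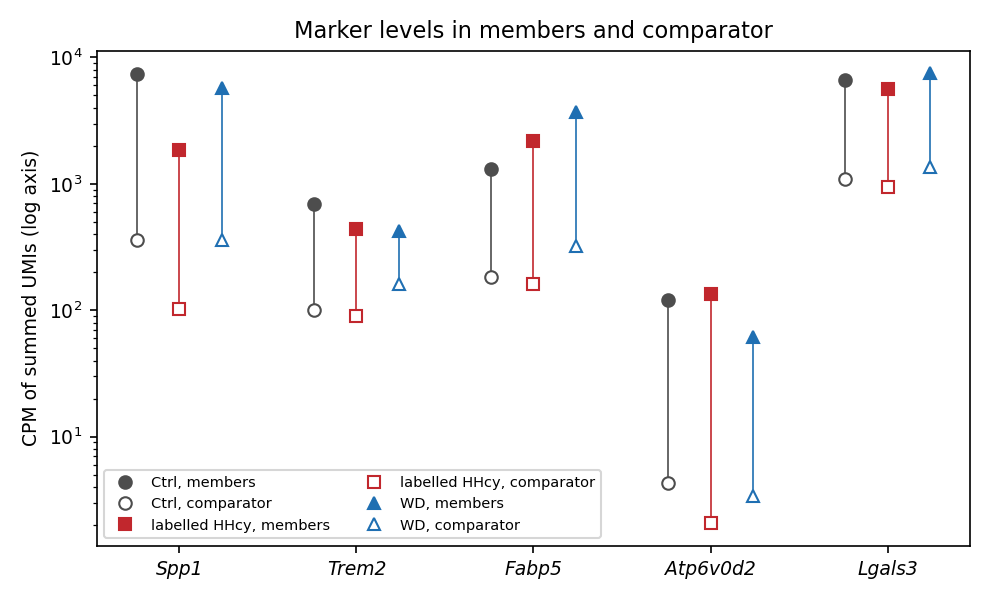
CPM of summed UMIs (vertical log axis) for the 4 further markers and Lgals3 in members (filled) and comparator (open) of each library. Every filled symbol lies above its open partner, with the widest gaps for Spp1 (7400 against 362 CPM in Ctrl) and Atp6v0d2 (121 against 4.29 CPM in Ctrl).

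Not every member carried the whole set. At least 3 of the 4 further markers were detected in 42 of 71 members of Ctrl (59.2%, 46.8 to 70.7), 14 of 37 of the library labelled HHcy (37.8%, 22.5 to 55.2) and 91 of 156 of WD (58.3%, 50.2 to 66.2). In the comparator these were 51 of 1808, 24 of 1225 and 209 of 2567 barcodes. After each barcode was thinned to 2000 UMIs, leaving out 1, 1 and 2 shallower members and 93, 43 and 122 comparator barcodes, the shares were 24.3%, 16.7% and 20.1% of members against 0.350%, 0.169% and 0.450% of the comparator. Fabp5 was detected in 77.5%, 64.9% and 85.9% of members, in 25.9%, 32.4% and 35.8% of the comparator, and in 5.5%, 5.16% and 12% of the B cell barcodes, whose median depths were 7809, 6580 and 6825.5 UMIs. None of the further markers was detected in 6 of the 71 Ctrl members and 6 of the 37 members of the library labelled HHcy.

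Leukocyte and macrophage genes were detected in most members. Ptprc, the gene of CD45, was detected in 70, 34 and 150 of them and Csf1r in 62, 34 and 146. Csf1r was at 425, 382 and 345 CPM in members against 638, 640 and 624 in a comparator that had to hold it. Of 14 genes of macrophage identity, all of which could be measured in each library, 2, 2 and 1 were at least 2-fold higher in members and 1, 2 and 2 were at least 2-fold lower. Cd68, a gene of the rule, was among the higher ones, and the transcription factor Maf was lower in each library. The median log2 ratio of these 14 genes was 0.04, -0.15 and 0.08, near that of all genes given next.

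Over all genes with a mean of at least 20 CPM in members and comparator, 273 of 5609 were at least 2-fold higher in the members of Ctrl (4.87%), 225 of 5497 in the library labelled HHcy (4.09%) and 170 of 5508 in WD (3.09%). Lower by at least 2-fold were 340 (6.06%), 314 (5.71%) and 282 (5.12%). Higher in all 3 libraries were 101 of 5131 genes (1.97%) and lower in all 3 were 110 (2.14%). Without the library labelled HHcy, 129 of 5335 were higher (2.42%) and 164 lower (3.07%) in both Ctrl and WD. The median log2 ratio of all genes was near 0, at -0.02, 0.01 and -0.06. The genes described next are the 25 highest and 15 lowest by the smallest of their 3 ratios, among genes with a mean of at least 50 CPM in each library, and further members of lists of pathway genes.

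**Figure D3:**
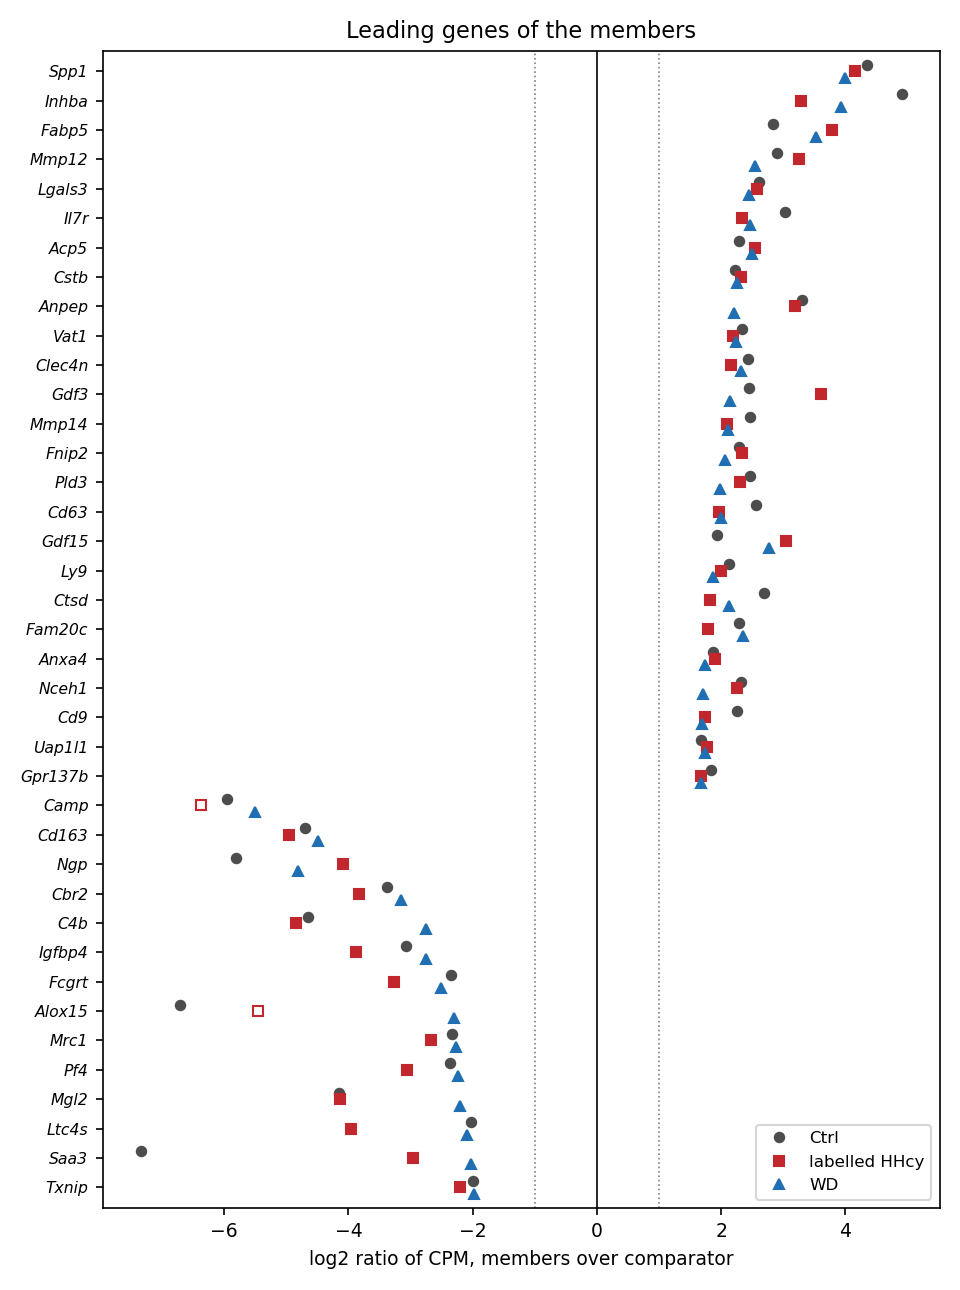
Log2 ratio of CPM, members over comparator (horizontal axis), for the 25 leading higher and 14 of the 15 leading lower genes in each library. Open squares are lower bounds in size, set from 3 UMIs where members held 0, dotted lines mark 2-fold, and the higher genes run from Spp1 at 4.00 or more to Gpr137b at 1.67 or more.

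Many lysosomal genes were higher in the members. Of 20 lysosomal proteases and membrane proteins, 12 of 20 measured were at least 2-fold higher in Ctrl, 8 of 19 in the library labelled HHcy and 9 of 20 in WD, and 0 were 2-fold lower, with median log2 ratios of 1.09, 0.53 and 0.84. Ctsd, the aspartic protease cathepsin D, was at 3211 against 500 CPM in Ctrl, 1913 against 542 in the library labelled HHcy and 2869 against 660 in WD. Ctsb, a cysteine cathepsin, was at 5850 against 1772, 4002 against 1688 and 5808 against 2099 CPM. Psap, the precursor of proteins that help lysosomal enzymes degrade sphingolipids, was at 6007 against 2453, 5425 against 1998 and 6887 against 2055 CPM. For each of these genes all 3 member levels exceeded all 3 comparator levels. Ctsk, a collagen-degrading cathepsin known from osteoclasts, was at 119 against 0.972, 34.6 against 3.90 and 56.2 against 3.35 CPM, but it was detected in 17 of 71, 7 of 37 and 54 of 156 members (0.341%, 0.399% and 0.870% of B cell barcodes), and 53.4% of its UMIs in Ctrl came from 1 member.

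Other genes tied to lysosomes were higher. Cstb, a cytosolic inhibitor of cathepsins, was at 1378 against 295, 1327 against 265 and 1852 against 386 CPM. Cd63, a tetraspanin of late endosomes, was at 1389 against 234, 936 against 239 and 1347 against 336 CPM. Acp5, the acid phosphatase TRAP, was at 292 against 59.9, 339 against 57.8 and 393 against 69.3 CPM. Pld3, an endolysosomal exonuclease, and Gpr137b, a lysosomal membrane protein, had their smallest log2 ratios at 1.98 and 1.67.

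The vacuolar ATPase pumps protons into lysosomes. Of 16 of its subunits and accessory genes, 7, 4 and 5 were at least 2-fold higher and all 16 had a ratio above 0 in each library, with medians of 0.76, 0.72 and 0.80. Atp6v0c, the proteolipid of its membrane ring, was at 1752 against 707, 2105 against 777 and 2342 against 956 CPM. Atp6v1c1, a subunit of the stalk, was at 155 against 46.9, 133 against 42.2 and 176 against 51.0 CPM. In contrast, of 12 measured regulators of the lysosome stress response, Fnip2 alone passed 2-fold, at 130 against 26.6, 120 against 23.8 and 137 against 32.9 CPM. Fnip2 encodes a partner of folliculin in nutrient sensing at the lysosome. Mitf, a transcription factor of the MiT/TFE family, had log2 ratios of 0.88 (0.49 to 1.26), 0.84 (0.19 to 1.43) and 0.86 (0.61 to 1.11). Tfeb, of the same family, had ratios of -0.31 (-0.79 to 0.13), 0.42 (-0.18 to 0.97) and 0.16 (-0.12 to 0.43), whose intervals include 0.

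Because MiT/TFE factors read the E-box CACGTG, often within GTCACGTG, the promoters of the leading higher genes were searched on both strands in the RefSeq promoter table (mouse GRCm38.p6, 300 bases from before to just after a start site), and 18 of the 25 genes were matched. CACGTG was in a promoter of 3 of the 18 (16.7%), Ctsd, Gdf15 and Nceh1, against 12.3% of 2103 genes with promoters that were expressed enough to be named and 8.09% of all 27025 genes. GTCACGTG, which contains CACGTG, was in that of Ctsd alone (5.56%), against 6.09% and 2.55%. Of 12 matched leading lower genes, 0 held CACGTG. These shares are descriptions of letters in a window and show no binding. The promoters of Ctsd (chr7:142387778-142388077, minus strand), Nceh1 (chr3:27182754-27183053, plus strand) and Gpnmb (chr6:49036268-49036567, plus strand) are shown to compare promoters that hold the motif with that of the gene that chose the members, which holds none. Capitals mark CACGTG, extended in Ctsd to CACGTGAC, the other strand of GTCACGTG, which occurs there at both marked places, and the motif of Nceh1 starts at -26 from the start site.
Ctsd: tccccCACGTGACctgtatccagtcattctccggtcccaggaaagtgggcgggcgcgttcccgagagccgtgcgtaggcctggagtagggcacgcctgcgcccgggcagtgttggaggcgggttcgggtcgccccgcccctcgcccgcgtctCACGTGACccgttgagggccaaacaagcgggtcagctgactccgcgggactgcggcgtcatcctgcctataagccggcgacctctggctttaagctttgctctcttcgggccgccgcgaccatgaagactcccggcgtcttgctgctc
Nceh1: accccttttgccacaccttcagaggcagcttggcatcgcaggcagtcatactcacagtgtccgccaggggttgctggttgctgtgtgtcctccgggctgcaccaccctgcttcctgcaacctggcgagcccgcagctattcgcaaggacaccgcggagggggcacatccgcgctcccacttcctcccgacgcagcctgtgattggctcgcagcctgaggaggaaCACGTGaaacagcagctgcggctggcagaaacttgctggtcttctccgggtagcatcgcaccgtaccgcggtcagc
Gpnmb: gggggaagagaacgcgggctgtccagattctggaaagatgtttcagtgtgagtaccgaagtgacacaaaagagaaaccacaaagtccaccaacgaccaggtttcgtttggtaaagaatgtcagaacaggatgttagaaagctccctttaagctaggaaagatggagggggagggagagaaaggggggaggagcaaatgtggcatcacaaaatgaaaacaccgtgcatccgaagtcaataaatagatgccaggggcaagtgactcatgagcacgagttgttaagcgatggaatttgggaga

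Lipid storage genes were higher in part. Of 14 genes of lipid storage, 5 of 11 measured were at least 2-fold higher in Ctrl, 5 of 11 in the library labelled HHcy and 5 of 12 in WD, and these were Lpl, Plin2, Soat1, Fabp5 and Hilpda each time. The list's median log2 ratio was 0.81, 0.67 and 0.67. Lpl, the lipase that frees fatty acids from lipoproteins, was at 962 against 163, 845 against 114 and 622 against 222 CPM. Plin2, a coat protein of lipid droplets, was at 883 against 295, 921 against 308 and 1031 against 405 CPM and was detected in 68 of 71, 29 of 37 and 153 of 156 members (9.40%, 8.33% and 13.6% of B cell barcodes). Soat1, which esterifies cholesterol for storage, was at 201 against 86.1, 177 against 77.0 and 171 against 74.2 CPM. Hilpda, an inhibitor of droplet lipolysis, was at 126 against 46.5, 160 against 71.1 and 217 against 73.8 CPM.

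The genes that release and export cholesterol were higher as well. Of 13 listed, 6 of 11 measured were at least 2-fold higher in Ctrl, 6 of 12 in the library labelled HHcy and 5 of 11 in WD, with medians of 1.29, 0.93 and 0.83. Lipa, the lysosomal acid lipase, was at 375 against 114, 484 against 121 and 374 against 141 CPM. Npc1, which moves cholesterol out of the lysosome, was at 116 against 44.7, 115 against 43.4 and 117 against 48.9 CPM. Nceh1, a neutral cholesteryl ester hydrolase, was at 181 against 36.1, 153 against 31.9 and 148 against 45.6 CPM. The exporters followed, with Abcg1 at 357 against 140, 291 against 109 and 413 against 169 CPM, and Abca1 at 381 against 123, 288 against 126 and 290 against 163 CPM, the last ratio under 2-fold at 0.83 (0.72 to 0.94). Nr1h3, the oxysterol receptor LXR alpha that drives both exporters, had log2 ratios of 1.29 (0.96 to 1.61), 1.54 (1.04 to 2.01) and 1.55 (1.36 to 1.74). Apoc2, an apolipoprotein that activates Lpl, was instead lower in members, past 2-fold except in WD, at 53.0 against 221, 80.1 against 186 and 66.9 against 129 CPM.

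Cholesterol synthesis and the scavenger receptors did not show this pattern. Of 5 synthesis or uptake genes measured in each library, 0 were 2-fold higher, with list medians of -0.39, -0.57 and -0.12. Of 9 measured scavenger receptors, 2, 3 and 1 were at least 2-fold higher and 0, 2 and 1 lower. Cd68, which the member rule used, was among the higher ones in each library and the only one in WD. Msr1, the class A scavenger receptor, had log2 ratios of 0.93 (0.71 to 1.14), 1.10 (0.77 to 1.40) and 0.81 (0.65 to 0.97). Cd36, a receptor for oxidized lipoproteins, was at 262 against 207, 92.8 against 198 and 160 against 153 CPM, so it was lower in the members of the library labelled HHcy and close to the comparator in WD.

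Several of the leading genes encode secreted or surface proteins. Inhba, the activin A subunit, was at 337 against 11.2, 115 against 11.8 and 249 against 16.3 CPM, yet it was detected in 19 of 71, 12 of 37 and 36 of 156 members (0.633%, 0.228% and 0.783% of B cell barcodes). Gdf15, a stress-induced secreted factor of the same superfamily, was at 737 against 192, 1154 against 140 and 1366 against 201 CPM. Without barcodes holding 3 or more genes of another cell type, which leaves 7 members of the library labelled HHcy, its log2 ratio there was -0.49 (-1.71 to 0.50). Gdf3, another member of that superfamily, was at 113 against 20.7, 124 against 10.2 and 106 against 23.9 CPM. Lgals3, the lectin galectin-3, was detected in every member (26.9%, 17.2% and 33.7% of B cell barcodes), at 6677 against 1093, 5627 against 938 and 7495 against 1365 CPM. Il7r, the interleukin 7 receptor chain, was at 269 against 32.9, 107 against 21.2 and 224 against 40.6 CPM. Anpep, the aminopeptidase CD13, Clec4n, the fungal lectin receptor dectin-2, Ly9, a receptor of the SLAM family, and Cd9, a tetraspanin, had their smallest log2 ratios over the libraries at 2.203, 2.16, 1.86 and 1.70.

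Several genes that degrade matrix were higher. Of 18 genes of matrix remodelling, 5 of 12 measured were at least 2-fold higher in Ctrl, 3 of 13 in the library labelled HHcy and 6 of 11 in WD, with medians of 0.60, 0.41 and 1.04. Mmp12, macrophage elastase, was at 932 against 125, 936 against 98.0 and 555 against 94.9 CPM, in 32 of 71, 12 of 37 and 55 of 156 members (1.65%, 1.37% and 3.13% of B cell barcodes). Mmp14, a membrane-bound collagenase, was at 249 against 45.2, 137 against 31.9 and 252 against 58.4 CPM. Mmp19 was at 127 against 30.6, 54.6 against 20.3 and 140 against 23.1 CPM. Mmp9, which neutrophils carry in granules, was at least 2-fold lower in each library.

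Ferritin and some antioxidant genes were also higher. Both ferritin chains were higher, Fth1 at 19776 against 8451, 24117 against 10020 and 25407 against 10328 CPM and Ftl1 at 9635 against 3724, 9977 against 4544 and 12814 against 5176 CPM. Of 18 measured antioxidant genes, 3, 4 and 5 were at least 2-fold higher, with medians of 0.25, 0.48 and 0.41. Gclm, a subunit of the enzyme that limits glutathione synthesis, was at 83.9 against 25.04, 146 against 29.5 and 73.1 against 24.6 CPM. Srxn1, which repairs peroxiredoxins, was at 63.6 against 17.3, 52.8 against 12.3 and 66.1 against 21.5 CPM. Prdx1, a peroxiredoxin, was at 1617 against 449, 3293 against 423 and 1763 against 583 CPM, but 66.9% of its UMIs in the library labelled HHcy came from 1 member. Hmox1, which breaks down haem, was not higher, with log2 ratios of -0.33 (-0.54 to -0.12), -0.56 (-0.93 to -0.21) and -0.20 (-0.35 to -0.06).

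Of 18 inflammatory genes, 5, 6 and 5 were at least 2-fold higher, with medians of 0.37, 0.61 and 0.48, and the direction differed among them. Il1rn, the interleukin 1 receptor antagonist, was at 563 against 161, 541 against 173 and 703 against 180 CPM. Il1a, one of the receptor's agonists, was at 221 against 36.0, 135 against 60.9 and 224 against 50.5 CPM. Il1b, the main secreted agonist, was close to the comparator, with log2 ratios of -0.32 (-0.39 to -0.24), -0.44 (-0.54 to -0.35) and 0.44 (0.40 to 0.49). Tnf had ratios of 0.40 (0.32 to 0.48), 1.22 (1.13 to 1.32) and 0.97 (0.92 to 1.02). Interferon-stimulated genes were not higher: 0 of 16, 17 and 19 measured passed 2-fold upward, with medians of -0.80, -0.42 and -0.32.

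Many of the leading lower genes are known from other cells that the comparator holds. Of 15 resident macrophage genes, 10 of 11 measured were at least 2-fold lower in Ctrl, 12 of 13 in the library labelled HHcy and 13 of 13 in WD, and these counts include Lyve1, which the rule used. The medians were -2.55, -3.42 and -3.09. The comparator could hold Lyve1 and the members could not, so other genes of Lyve1 cells were not free of the rule either. Against the C1qa barcodes without Lyve1 described below, 11 of 12, 10 of 12 and 10 of 11 measured resident genes were at least 2-fold lower. Cd163, a haemoglobin scavenger receptor, was at 8.15 against 211, 9.10 against 282 and 9.55 against 216 CPM. Mrc1, the mannose receptor, was at 83.1 against 420, 63.7 against 406 and 99.9 against 480 CPM. Cbr2, Pf4, Mgl2, Fcgrt, Igfbp4 and the complement gene C4b were also lower, C4b at 11.4 against 288, 12.7 against 364 and 56.2 against 380 CPM. Camp and Ngp, granule proteins of neutrophils, were lower in each library, Ngp at 3.26 against 183, 38.2 against 652 and 5.51 against 154 CPM. Among members of the library labelled HHcy, Ngp turned to 2.06 (-3.38 to 4.87) without barcodes holding 3 or more genes of another cell type, and Camp, at 0 UMIs in the thinned members, had an upper bound of 0.039 when 3 UMIs stand for the 0. Txnip, an inhibitor of glucose uptake and of thioredoxin, was at 49.7 against 198, 52.8 against 244 and 54.4 against 215 CPM. Saa3, an acute phase protein, and Alox15, a lipoxygenase, are abundant in macrophages of the serous cavities. Saa3 was at 2.45 against 396, 113 against 879 and 123 against 500 CPM, and Alox15 at 1.63 against 171, 0 against 241 and 36.0 against 177 CPM. Set in the same way for those 10 thinned members of the library labelled HHcy, the upper bound of the Alox15 ratio was 0.64.

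Other lists covered respiration, division, handling of the tissue and antigen presentation. Of 24 nuclear genes of oxidative phosphorylation, 0 passed 2-fold, while all 24 had ratios above 0 in each library, with medians of 0.33, 0.28 and 0.27. Of the cell cycle genes 4 of 9, 4 of 7 and 6 of 12 measured were lower with medians of -0.90, -1.06 and -1.03, among them Mki67 at 21.2 against 73.9, 25.5 against 53.0 and 36.4 against 75.9 CPM. The median of the library labelled HHcy was 1.30 over the 10 members left by thinning before the rule, with 3 UMIs standing for each 0. With members defined by at least 1 Gpnmb UMI it was 0.17, and both are of the opposite sign. Genes induced by tissue dissociation were also lower, 6, 7 and 4 of 18 with medians of -0.83, -0.89 and -0.73, among them Egr1 at 578 against 1411, 601 against 1411 and 689 against 1498 CPM. Of the MHC class II list, Ctss was higher in each library and 5 of 12, 2 of 12 and 1 of 10 were lower. Of 17 genes of the homocysteine and methionine cycle, 6, 4 and 5 could be measured in the comparisons, and 1, 2 and 0 passed 2-fold upward, with medians of 0.24, 0.67 and -0.31. Summed over the whole list, members were below the comparator in each library, at 359 against 405, 319 against 359 and 330 against 389 CPM. Of 17 measured growth factors and receptors, 6, 4 and 4 were higher and 0 lower in each library, with medians of 0.58, 0.28 and 0.59.

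The members were also set against a narrower class. Comparator barcodes with at least 3 UMIs of C1qa, a complement gene of mature macrophages, and none of Lyve1 numbered 482, 288 and 1163. In them Spp1 was at 712, 113 and 453 CPM, Fabp5 at 104, 134 and 237, Lgals3 at 1284, 1043 and 1404, and Ctsd at 835, 837 and 744, each below the members. Trem2 was at 216, 167 and 244 CPM in them, against 696, 437 and 425 in members, so it was under 2-fold higher in WD. Against this class 8 of 20, 4 of 19 and 8 of 20 measured lysosomal genes were at least 2-fold higher and 1, 1 and 0 lower. The medians of that list were 0.80, 0.32 and 0.85. Of the lipid storage genes 5 of 10, 4 of 11 and 4 of 11 were higher and 1, 1 and 0 lower. Barcodes with Lyve1 and Csf1r and without Gpnmb had Spp1 at 26.3, 93.9 and 260 CPM, Fabp5 at 148, 93.1 and 300, and Trem2 at 84.0, 96.5 and 136. C1qa itself was at 2069, 1253 and 1377 CPM in members and at 1616, 2230 and 2992 in the full comparator, so the members were above it in Ctrl and below it in the other libraries.

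Members were not uniform, and gene levels followed the Gpnmb count. In barcodes with exactly 1 Gpnmb UMI, then in members with 2 to 4, 5 to 9 and 10 or more, Fabp5 was at 557, 386, 817 and 2388 CPM in Ctrl. They were at 194, 569, 1973 and 3809 for the library labelled HHcy, and at 1247, 1680, 2304 and 5572 in WD. Ctsd went from 893 to 4522 CPM over the same groups in Ctrl, from 1089 to 3758 in WD and from 362 to 2938 in the remaining library. Lgals3 went from 1971 to 9302, from 2006 to 8896 and from 2962 to 9587 CPM. Monocyte genes ran the other way. Plac8, abundant in monocytes, went from 2252 to 84.4 CPM in Ctrl, from 1716 to 463 in WD and from 4075 to 789 in the remaining library. Ccr2, the chemokine receptor of classical monocytes, went from 302 to 53.0, from 648 to 131 and from 185 to 73.3 CPM. Ly6c2, their surface antigen, went from 538 to 159, from 1829 to 300 and from 625 to 228 CPM in the same order. Spp1 did not follow the count in Ctrl, where members with 2 to 4 Gpnmb UMIs held 9225 CPM and those with 5 to 9 held 1783.

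**Figure D4:**
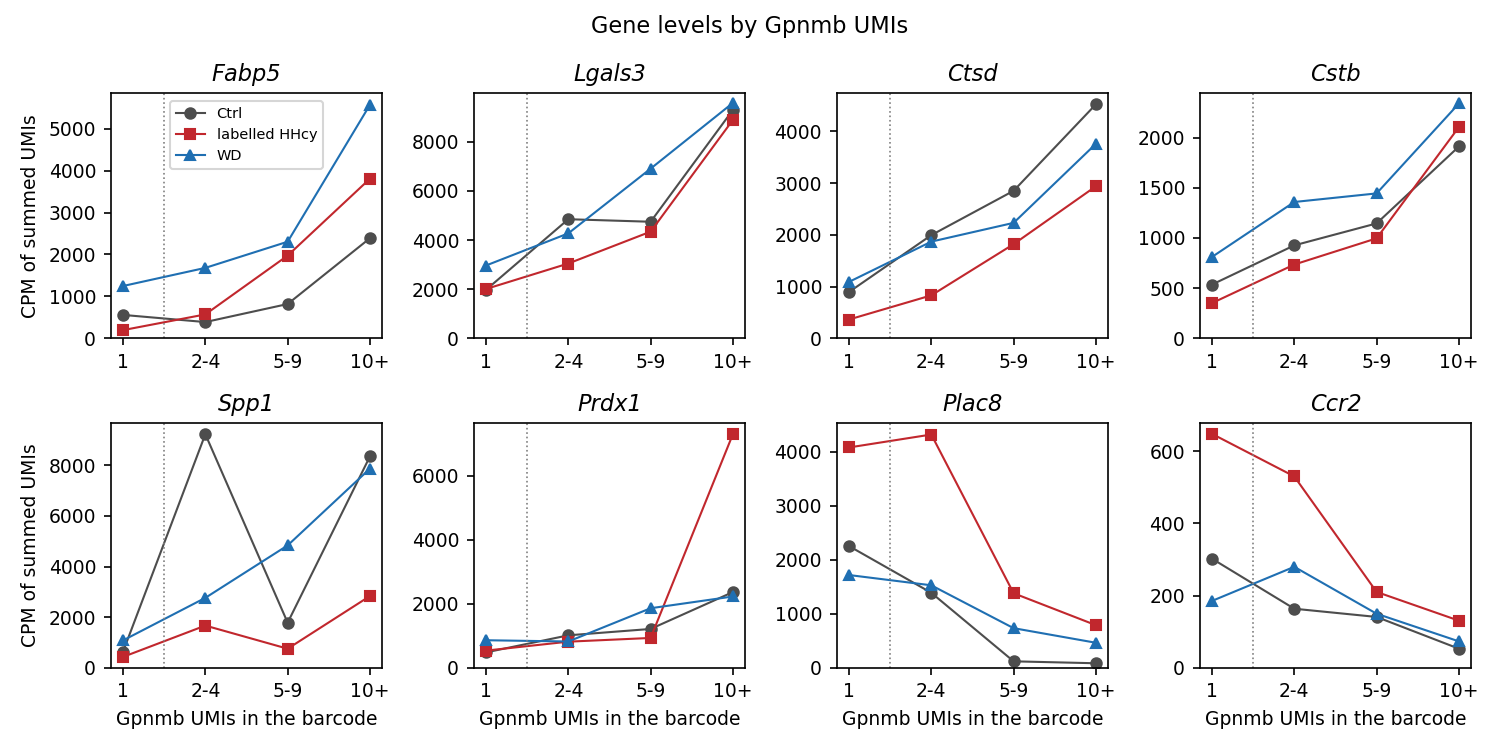
CPM of summed UMIs (vertical axes, from 0) of 8 genes by the Gpnmb UMIs of the barcode, for barcodes with 1 UMI that met the rest of the rule (left of the dotted line) and for members with 2 to 4, 5 to 9 and 10 or more, in each library. Fabp5, Lgals3, Ctsd and Cstb are highest and Plac8 and Ccr2 lowest in members with 10 or more, while the Prdx1 peak of the library labelled HHcy rests largely on 1 member.

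The group with the most Gpnmb also carried the other markers most often. At least 3 of the 4 further markers were detected in 12 of 30 members with 2 to 4 Gpnmb UMIs and in 23 of 27 with 10 or more in Ctrl, in 2 of 16 and 7 of 11 in the library labelled HHcy, and in 24 of 51 and 47 of 66 in WD. Median depth also differed between these groups, at 15322 and 17850 UMIs in Ctrl, 11191.5 and 16504 in the library labelled HHcy, and 13216 and 18205 in WD. At 2000 UMIs the counts were 3 of 29 and 13 of 27 in Ctrl, 1 of 15 and 4 of 11 in the library labelled HHcy, and 7 of 50 and 19 of 66 in WD.

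Across members thinned to 2000 UMIs, the genes whose counts ran most like Gpnmb were Fabp5, Fth1, Psap, Esd, Atp6v1c1, Ctsd, Lgals3, Spp1, Ftl1 and Clec4n. Their Spearman correlations, averaged over the libraries (70, 36 and 154 members), ran from 0.37 for Fabp5 to 0.29 for Clec4n. At the other end were, among others, Tmsb4x at -0.36, Coro1a, Rpsa, Rps9, Lsp1, Actb, Adgre1, Ccr2 and Rps29, that is, genes of actin and its regulators, ribosomal proteins, and markers of monocytes and macrophages. These values describe sparse counts of barcodes that share a library and its depth, and Gpnmb chose the members.

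Many members carried genes of other cell types. In Ctrl, the library labelled HHcy and WD, at least 3 neutrophil genes were detected in 14 of 71, 24 of 37 and 50 of 156 members. In the comparator the shares were 15.5%, 45.5% and 25.1%. At least 3 B cell genes were detected in 17, 15 and 21 members, against 17.8%, 40.7% and 17.9% of the comparator. A few members stood out for genes of further cell types. In Ctrl, 2 members held at least 3 of 6 genes of alveolar macrophages, a list chosen after the data were examined, and all UMIs of Ear1 (49), Krt79 (18), Krt19 (17) and Fabp1 (27) found in members there were theirs. Another Ctrl barcode accounted for 918 of the 930 CPM of mast cell genes in the members. In WD, 3 members held at least 3 of 6 genes of serous cavity macrophages, a list chosen in the same way, and 97.3% of the 258 UMIs of Prg4, the lubricant proteoglycan 4, were theirs. These are 1.92% of WD members, against 1 of 37 members (2.70%) of the library labelled HHcy and 0 of 71 in Ctrl. In the comparator the shares were 4.48% in WD, 5.63% in the library labelled HHcy and 5.20% in Ctrl, each above that of the members. Members with 5 or more UMIs of the neutrophil genes S100a8 and S100a9 numbered 1, 6 and 11, and among the comparator the shares were 4.98%, 21.2% and 9.23%.

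Free RNA and doublets were read from markers of other cell types. B cell genes summed to 143, 406 and 145 CPM in members against 292, 651 and 306 in the comparator and 16855, 26586 and 21164 in the B cell barcodes, with Cd79a at 0 by the rule. The 11 neutrophil genes summed to 135, 3896 and 1752 CPM in members against 4683, 21859 and 4901 in the comparator, with Cxcr2 at 0 in Ctrl and Camp at 0 in the library labelled HHcy. T and NK cell genes summed to 5.71, 9.10 and 26.1 CPM, with 6, 6 and 3 of 11 at 0, and stromal genes to 8.97, 36.4 and 27.2 CPM, with 5, 5 and 2 of 11 at 0. Cd3e and Col1a1 are among these zeros by the rule. Of the 8 endothelial genes, 5, 4 and 2 were at 0, and Cdh5 was among them each time. The part of such RNA in the differences was not tested.

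The share of members differed between the libraries. They made up 1.18% (0.919 to 1.48) of the kept barcodes of Ctrl, 0.454% (0.320 to 0.625) of the library labelled HHcy and 2.32% (1.98 to 2.71) of WD. The log2 ratio of shares was 0.98 (0.58 to 1.39) for WD over Ctrl and -1.37 (-1.95 to -0.80) for HHcy over Ctrl. Kept barcodes include B cells and T cells, so the share of a macrophage type also moves with theirs. Among barcodes with Csf1r and no Cd79a or Cd3e, together with the members, the shares were 3.64% (2.86 to 4.57), 2.84% (2.01 to 3.89) and 5.42% (4.62 to 6.31), and the ratios were 0.57 (0.18 to 0.97) for WD over Ctrl and -0.36 (-0.92 to 0.20) for HHcy over Ctrl. WD thus had the largest share by either denominator, and the difference between the library labelled HHcy and Ctrl was within counting error by the second. After thinning to 2000 UMIs before the rule, 35, 10 and 74 members remained, at 0.610%, 0.127% and 1.17% of the thinned barcodes. Without barcodes holding 3 or more genes of another cell type the shares were 0.662%, 0.0858% and 1.19%, and HHcy over Ctrl was -2.95. With 1 library a group, differences between mice, dissections and sorts cannot be told apart from the treatments.

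Gene levels within the members were then compared between libraries, and both comparisons below share the Ctrl members. In the members of the library labelled HHcy, 172 of 5407 genes were at least 2-fold higher than in Ctrl (3.18%) and 200 lower (3.7%). In WD, 49 of 5363 were higher (0.914%) and 69 lower (1.29%). The members summed to 1226972 UMIs in Ctrl, 549287 in the library labelled HHcy and 2721942 in WD, so the 37 members of the second carry the widest counting error, and a single barcode could set a value.

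**Figure D5:**
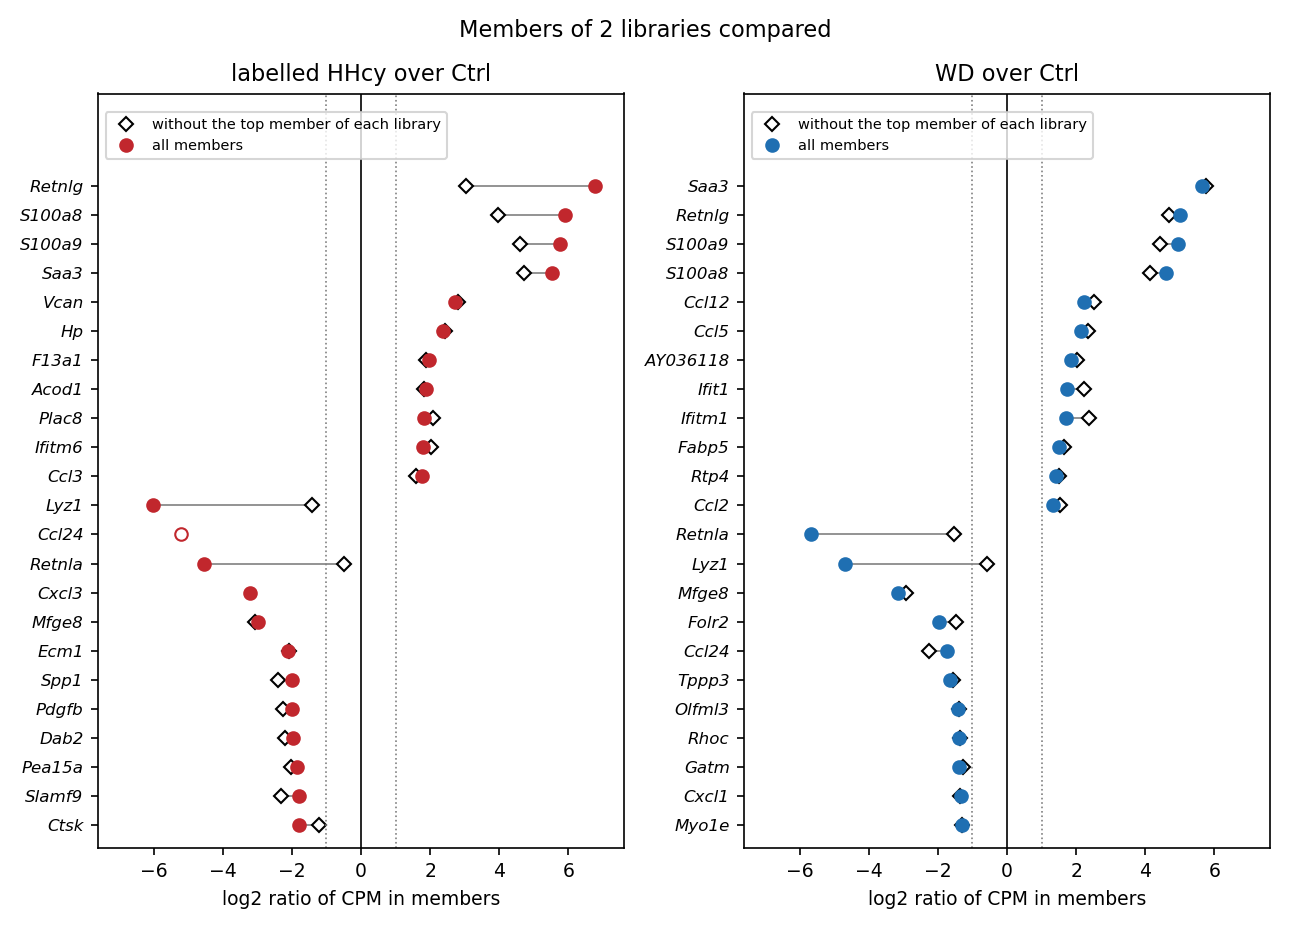
Log2 ratio of CPM in members (horizontal axes) of the library labelled HHcy (left) and WD (right) over Ctrl for the named highest and lowest genes that are reported here. Filled circles are all members, the open circle for Ccl24 is a bound set from 3 UMIs, diamonds leave out the member with the most UMIs of that gene in each library, and Lyz1 and Retnla move the furthest when it is left out.

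Of the 5 foam cell markers Fabp5 alone was at least 2-fold higher in WD members than in Ctrl, at 3710 against 1302 CPM, a log2 ratio of 1.51 (1.43 to 1.59), and 1.64 without the top member of each library. The same gene was higher in the WD comparator, by 0.81. Spp1 was at 5743 against 7400 CPM, Gpnmb at 1019 against 901 and Trem2 at 425 against 696. Of 10 measured lipid storage genes Fabp5 alone passed 2-fold, and of 11 release and export genes, 16 vacuolar ATPase genes and 20 lysosomal genes, 0, 0 and 0 were higher. Of the lysosomal genes 1 was 2-fold lower, Ctsk. Atp6v0d2 was at 61.4 against 121 CPM. The medians of WD over Ctrl members were -0.04 for the lysosomal list and 0.19 for lipid storage.

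Chemokines and interferon-stimulated genes were among the genes higher in WD members. Ccl2, which draws Ccr2 monocytes, was at 1880 against 740 CPM, with a ratio of 1.34 (1.24 to 1.45), and was detected in 125 of 156 against 46 of 71 members. B cell barcodes held it in 16.8%, 15.4% and 21.6% for Ctrl, HHcy and WD. HHcy members had 521 CPM. Ccl12, a related chemokine, was at 126 against 26.9 CPM, with 37.0% of its UMIs in 1 WD member, and Ccl5 at 258 against 58.7 CPM, with 27.6% in 1. Of 17 measured interferon-stimulated genes 5 were at least 2-fold higher and all 17 had a ratio above 0, with a median of 0.69. Ifit1, which binds foreign RNA ends, was at 172 against 51.3 CPM, with a ratio of 1.74 (1.36 to 2.14), and was detected in 68 of 156 against 15 of 71 members (5.91% against 3.55% of B cell barcodes). Rtp4 was at 130 against 48.9 CPM. In the comparator the WD over Ctrl ratios were 0.79 for Ifit1, 0.65 for Rtp4 and 0.64 for Ccl2, in the same direction and smaller.

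Lower in WD members were Mfge8, a bridge that marks dying cells for engulfment, at 17.6 against 157 CPM with a ratio of -3.16 (-3.64 to -2.69), and Cxcl1, a neutrophil chemokine, at 533 against 1346 CPM with a ratio of -1.34 (-1.44 to -1.23). Mfge8 was detected in 9 of 71 Ctrl members and 22 of 156 WD members, and 42.5% of its UMIs in Ctrl were in 1 member. Olfml3, Rhoc, Gatm and Myo1e were lower with ratios from -1.43 to -1.29. Folr2, a folate receptor of resident macrophages, was at 23.5 against 92.1 CPM over all members, but among members with 10 or more Gpnmb UMIs its ratio was 1.14, the opposite sign. Tppp3 turned in the same way, from -1.66 to 1.12.

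Some of the largest ratios came from 1 barcode. Retnla, a product of alternatively activated macrophages, was at 803 CPM in Ctrl members, 34.6 in the library labelled HHcy and 15.8 in WD, and 94.8% of the Ctrl UMIs were in 1 member. Without the top member of each library its ratios went from -4.54 to -0.49 for HHcy and from -5.67 to -1.53 for WD. Lyz1, a lysozyme gene, was at 236, 3.64 and 9.18 CPM with 97.9% of the Ctrl UMIs in 1 member, and its ratios went from -6.02 to -1.42 and from -4.68 to -0.59.

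In the members of the library labelled HHcy, monocyte and neutrophil genes were higher than in Ctrl. Of 13 measured monocyte genes 6 were at least 2-fold higher and 0 lower, with a median of 0.75. Plac8 was at 2125 against 597 CPM with a ratio of 1.83 (1.70 to 1.97), and the comparator ratio was 0.38. With thinning before the rule, which left 10 members there and 35 in Ctrl, the Plac8 ratio was -0.029 (-1.48 to 1.22). Ccr2 was at 286 against 113 CPM with a ratio of 1.34 (1.00 to 1.67), and the comparator ratio was 0.13. Vcan, a proteoglycan of monocytes, was at 124 against 18.8 CPM. F13a1, a coagulation factor chain, was at 279 against 71.7 CPM and Hp, haptoglobin, at 348 against 66.8 CPM. Each of these 5 genes was detected in 12 to 29 of the 37 members.

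Of 8 measured neutrophil genes all 8 were at least 2-fold higher in the library labelled HHcy. S100a8 and S100a9, the subunits of calprotectin, were at 1669 against 27.7 and 1486 against 27.7 CPM, with 77.3% and 58.5% of the UMIs in 1 member, and Retnlg was at 357 against 3.26 CPM with 94.4% in 1 member. In WD the same genes were at 673, 848 and 105 CPM. In B cell barcodes, which should lack them, S100a8 was at 242, 769 and 388 CPM, so the background of these genes was highest in the library labelled HHcy too. Igkc, an immunoglobulin light chain, was at 43.2, 226 and 47.4 CPM in members, again highest there. The part of free RNA, doublets and of the different share removed by Cd79a in these differences was not tested.

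Lower in the library labelled HHcy was Spp1, at 1839 against 7400 CPM with a ratio of -2.01 (-2.10 to -1.91), or -2.39 without the top member of each library. In the comparator the ratio was -1.82. Dab2, an endocytic adaptor, was at 67.4 against 266 CPM, a log2 ratio of -1.98. With thinning before the rule, over 10 members there and 35 in Ctrl, the Dab2 ratio became 0 (-2.06 to 1.67). It was -0.72 (-1.81 to 0.20) without barcodes holding 3 or more genes of another cell type. Pdgfb, a growth factor for smooth muscle, was at 32.8 against 131 CPM. Ccl24, an eosinophil chemokine, had 0 UMIs in the 37 members, against 246 in Ctrl at 200.5 CPM, a log2 ratio of -5.20 or lower when 3 UMIs stand for the 0. Cxcl3, another neutrophil chemokine, was in 1 of the 37 members. Of the 19 measured lysosomal genes 1 was 2-fold lower, Ctsk, and 1 had a ratio above 0, with a median of -0.39, whereas the median of 16 vacuolar ATPase genes was -0.02.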

How the data were processed

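Gene counts per barcode from 3 libraries were used as the authors deposited them: whole-number UMI counts of filtered barcodes. Per the file headers these counts came from cellranger 4.0.0, while the submitters' processing notes name Cell Ranger 2.2.0 and mm10. The annotation release is not given in the sources used here. Barcodes with at least 200 genes and at most 10% mitochondrial UMIs were kept, and 0 columns of other samples were met. Members, lists and comparisons were chosen with earlier results of these data known, and the alveolar and serous cavity lists and 5 alternative settings were added after these data were examined. UMIs were summed per class and library and scaled to CPM. With 1 library a group no test was made, and a gene counted as higher or lower past 2-fold at a mean of at least 20 CPM. Shares have exact Clopper-Pearson intervals, and gene ratios have exact conditional binomial intervals, at 95%, and a count of 0 was set to 3 UMIs for bounds. Free RNA was not removed. No doublet caller was run, but the rule drops barcodes with Cd79a, Cd3e or Col1a1, and a stricter exclusion was among the alternatives. Other genes of those cell types could remain. At least 1 gene of the B cell list was detected in 56 of 71, 37 of 37 and 128 of 156 members of Ctrl, HHcy and WD. Genes named as leading were the 25 highest and 15 lowest in all libraries and the 12 highest and lowest between libraries at a mean of at least 50 CPM, the 10 most and least like Gpnmb, and genes of the lists. Results of a few of these genes are not reported here. Thinning to 2000 UMIs used seed 1. For marker detection and correlations, the members chosen at full depth were thinned. For shares and the alternative settings, the rule was applied again to the thinned counts. Ratios were tested on simulated class sums that hold counting error alone, without spread between barcodes. The simulation therefore does not cover values set by 1 barcode. Python 3.11.15, numpy 2.4.6, scipy 1.17.1 and pandas 2.3.3 were used, with R 4.3.3 and edgeR 4.0.16 for TMM scaling factors alone. Strand-specific counting is not stated, so genes that overlap an antisense partner are uncertain.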

Additional observations from a re-analysis of the deposited data

Results flagged for a closer look

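The gene Lyz1, a lysozyme, was on opposite sides of the comparator in different libraries: its log2 ratio of members over comparator was 1.05 in Ctrl, -4.97 in the library labelled HHcy and -2.80 in WD. With 1 library a group, the difference between these ratios was not tested. In Ctrl 97.9% of the Lyz1 UMIs of the members lay in 1 barcode.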

How the results depend on the processing

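No paired analysis was possible because each group has 1 library, and no replicate could be left out for the same reason. Values below are in the order Ctrl, HHcy and WD. The share of members was 1.89%, 0.773% and 3.61% with at least 1 Gpnmb UMI, 0.679%, 0.258% and 1.56% with at least 5, 1.58%, 0.627% and 3.03% with at most 5% mitochondrial UMIs, 0.610%, 0.127% and 1.17% after thinning, 0.662%, 0.0858% and 1.19% without barcodes holding 3 or more genes of another cell type, and 3.64%, 2.84% and 5.42% of Csf1r barcodes. Allowing 1 UMI of Cd79a, Cd3e and Col1a1 gave 2.80% in WD. The log2 ratio of shares kept its sign: HHcy over Ctrl was -2.27 thinned, -2.95 without other-type barcodes and -0.36 of Csf1r barcodes, HHcy over WD was -3.20, -3.80 and -0.93, and WD over Ctrl was 0.57 of Csf1r barcodes.

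Counts of genes past 2-fold moved with the members and the minimum level. Higher than the comparator in Ctrl were 173 with at least 1 Gpnmb UMI, 893 thinned and 170 at a mean of 50 CPM, and lower were 158, 947 and 157, and 525 without other-type barcodes. For HHcy, higher were 112, 2362 and 125, and 1037 without other-type barcodes, and lower were 121 at 50 CPM and 816 without other-type barcodes. For WD, higher were 535 thinned and 111 at 50 CPM, and lower were 153 with at least 1 Gpnmb UMI, 880 thinned and 121 at 50 CPM. Members of HHcy over Ctrl gave 104 higher and 132 lower with at least 1 Gpnmb UMI, 1992 and 328 thinned, 893 and 620 without other-type barcodes, 61 and 64 at 50 CPM, and 344 and 425 with at least 10 Gpnmb UMIs. Members of WD over Ctrl gave 31 and 27, 589 and 1082, 117 and 137, 20 and 30, and 127 and 201 in that order, and 107 lower with at least 5 Gpnmb UMIs. Thinning and stricter members leave fewer UMIs per class, and 50 CPM tests fewer genes. Among the 10 thinned HHcy members, a gene at 0 UMIs was set to 3 UMIs. Such a gene could count as higher although undetected, so the counts of 2362 and 1992 can include undetected genes.

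Signs that turned, as log2 ratios, were these, and the cause was not tested. In Ctrl the monocyte list median was -1.18 against the full comparator and 0.41 against C1qa comparator barcodes. In HHcy these medians were -0.16 and 1.13, and in WD -0.68 and 0.33. The mast cell list median in Ctrl was -1.17 thinned, -4.86 without the top barcode of each gene and -3.70 with at least 10 Gpnmb UMIs. In HHcy, without other-type barcodes Gdf15 was -0.49 and Ngp 2.06. Thinned, Camp was at most 0.039 and Alox15 at most 0.64 (bounds from 3 UMIs, since both were at 0). Also thinned, the stromal list median was 1.56 and the cell cycle list median 1.30, with 3 UMIs standing for each 0. Genes at 0 can raise these thinned medians, which therefore do not show higher levels in members. The cell cycle list median was 0.17 with at least 1 Gpnmb UMI. For HHcy over Ctrl, Saa3 was -0.054 with at least 1 Gpnmb UMI, Plac8 -0.029 thinned and Ccl3 -0.67 without other-type barcodes. For WD over Ctrl, Ifitm1 was -0.46 with at least 1 Gpnmb UMI, Lyz1 0.99 without members holding 5 or more UMIs of S100a8 and S100a9 together, and Folr2 1.14 and Tppp3 1.12 with at least 10 Gpnmb UMIs. Of the 40 leading genes, 40 in Ctrl, 36 in HHcy and 40 in WD kept their direction under every setting run, and of the 24 named between libraries 20 did so in each comparison. Fewer stayed past 2-fold under every setting: 38, 28 and 39 of the 40. Of the 24, 11 did so for HHcy over Ctrl and 9 for WD over Ctrl. All these genes were chosen for their ratios in the same data.

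Depth limits the 37 members of the library labelled HHcy most. The member rule, the free RNA and the Apoe level of that library differ from the others, and 1 library a group leaves treatment and library inseparable.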
